A study of Mus musculus with 4 samples.

Results

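The genes described here belong to the Wnt pathway: the ligand genes Wnt4 and Wnt10b, the secreted antagonist gene Sfrp2, the receptor genes Fzd1 and Fzd2, the co-receptor genes Lrp5 and Lrp6, Ctnnb1, which encodes β-catenin, and the feedback gene Axin2. They were taken from a list of 10 genes, of which 9 were matched by Ensembl identifier among the 12208 genes of the table of CPM (counts per 1000000 counted reads). The tenth, Sfrp1, was dropped by that matching and is not analysed here. RNA was sequenced from mouse 3T3 cells, which the labels call a pre-osteoblast line without saying which 3T3 line, after control treatment (NC) or recombinant LTα1β2, each for 24 h or 48 h. LTα1β2 is a lymphotoxin heterotrimer of the TNF family that signals through the lymphotoxin β receptor. No dose is given in the sources used here, nor what the control cells received. Each of the 4 groups was 1 library, so a difference at a single time has no replicate check.

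In the canonical pathway a secreted Wnt protein binds a Frizzled receptor together with LRP5 or LRP6. β-Catenin is then spared from the destruction complex, which is built on AXIN proteins, and enters the nucleus to act with TCF/LEF factors. AXIN2 is itself a common target of that activity and damps it, while secreted Frizzled-related proteins bind Wnt ligands outside the cell. In bone, Wnt signalling through LRP5 and LRP6 is known for promoting osteoblast differentiation and bone mass.

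The libraries held between 11355974 and 15995777 reads, recovered from the steps of the CPM values. The treated 48 h library stood apart in transcript length, with a median over its reads of 2847 bases where the other libraries had 3320 to 3403. Of 8 osteoblast lineage markers, 6 were measured, and their summed CPM, mostly Col1a1, was 17079 and 15897 in control (24 h and 48 h) and 11574 and 9649 after treatment. Col1a1, Sp7, Runx2 and Dmp1 fell, Sp7 to 0.365 and 0.257 of control (adjusted p = 1.26e-15, limma), while Spp1 was at 1.16 and 1.45 of control and did not pass (adjusted p = 0.337, limma). Alpl and Ibsp, defining genes of that lineage, had no value among the 12208 genes, and Bglap was at 1.33 CPM or less in every library. Of the macrophage markers 3 of 5 were measured, summing to between 57.4 and 85.9 CPM and almost all Lyz2, and Ptprc and Adgre1 had no value. The single measured adipocyte marker of 5, Fabp4, was at 1.94 and 1.45 CPM in control cells and rose to 2.40 and 6.69 CPM after treatment (adjusted p = 0.00267, limma). Of 3 chondrocyte markers Sox9 and Col2a1 were measured, summing to between 64.3 and 147 CPM, of which Col2a1 fell (0.717 and 0.610 of control; adjusted p = 0.0159, limma), and none of 3 endothelial and 3 epithelial markers had a value. Their part in the results below was not tested. In bulk RNA, fewer cells of a type and less RNA per cell cannot be told apart.

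All 9 genes were lower in both treated libraries than in both control libraries, a pattern that 21.3% of the 12160 tested genes also had. In an additive model of time and treatment fitted to every gene (limma, Benjamini-Hochberg adjusted p of 0.05), 7 of the 9 fell and 0 rose, where 2.27% of all tested genes fell and 2.92% rose. Because the list was chosen with earlier results of these data known, these shares are a background and not a test. The 7 were Wnt4, Wnt10b, Sfrp2, Axin2, Lrp5, Fzd1 and Fzd2. Lrp6 and Ctnnb1 did not pass. The median difference of log2(CPM + 1) over the 9 genes was -0.54 at 24 h and -0.71 at 48 h, against 0.02 and -0.09 over all tested genes. The calls rest on 1 residual degree of freedom and on a spread that is borrowed wholly from genes of like level: with the prior degrees of freedom set to 10, which lets the spread of each gene count, 0 of the 9 passed and the adjusted p-values of the 7 lay between 0.0765 and 0.252 (limma). With libraries rescaled by the median of ratios (estimated prior of 9.83), 2 of the 9 passed, Sfrp2 and Wnt10b, and 84 of all tested genes fell. With rescaling and an infinite prior 8 of the 9 passed, but 459 of all tested genes fell, against 276 without rescaling. Fits without 1 library drop the time term too and set 1 library against a pair. They take their spread from the 24 h and 48 h libraries of that pair, so only their log2 differences are given here. These were negative for all 9 genes in each such fit. They ran from -0.12 (Ctnnb1) to -1.06 (Wnt10b) without the treated 24 h library. Without the treated 48 h library they ran from -0.09 (Ctnnb1) to -0.99 (Wnt4). Leaving out the control library gave -0.16 (Ctnnb1) to -0.93 (Wnt4) for 24 h and -0.05 (Ctnnb1) to -0.95 (Wnt4) for 48 h.

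**Figure D1:**
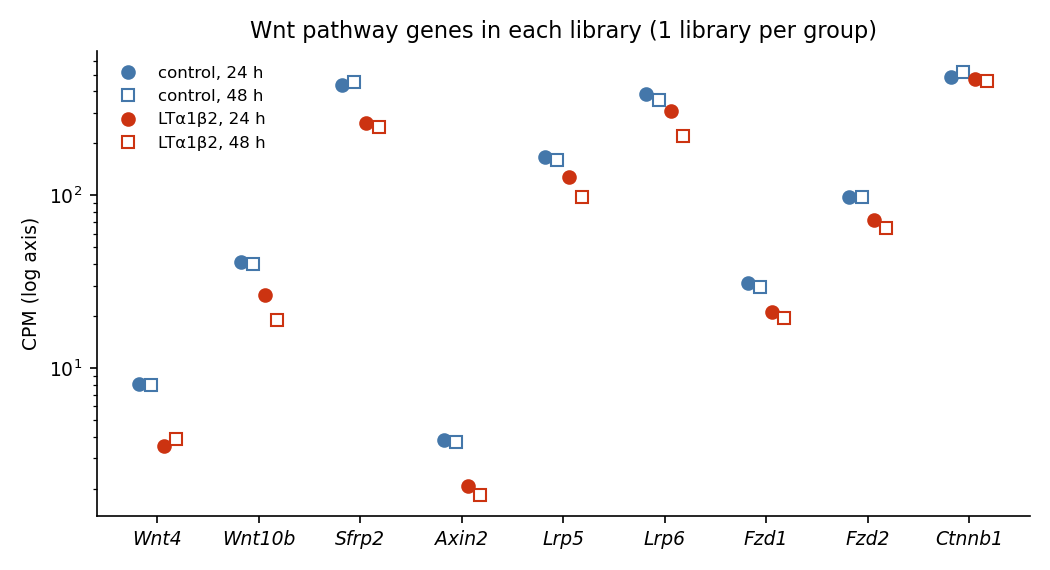
CPM of the 9 Wnt pathway genes on a log axis, with 1 point per library (circles 24 h, squares 48 h, blue control, red LTα1β2). For each gene both red points lie below both blue points, by a wide margin for Wnt4 (3.54 and 3.87 against 8.06 and 7.94 CPM) and a narrow one for Ctnnb1 (469 and 461 against 482 and 518 CPM).

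The 9 genes lie on 8 chromosomes in GENCODE M21 (GRCm38), and the build used upstream may differ. Only Fzd2 (102604396 to 102608058) and Axin2 (108920349 to 108950783) share a chromosome, 11, both on the plus strand. Wnt4 lies on chromosome 4 (137277489 to 137299726, plus strand), Wnt10b on chromosome 15 (98770712 to 98778150, minus strand) and Sfrp2 on chromosome 3 (83766321 to 83774316, plus strand). Lrp5 lies on chromosome 19 (3584828 to 3686564, minus strand), Lrp6 on chromosome 6 (134446476 to 134566965, minus strand), Fzd1 on chromosome 5 (4753839 to 4758035, minus strand) and Ctnnb1 on chromosome 9 (120929216 to 120960507, plus strand).

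Because these genes were lower together, the 250 bases before the RefSeq start (GRCm38.p6) were searched for the core of the TCF/LEF motif, through which β-catenin acts, and for a κB motif. Sequences were matched for 6 of the 9 genes (7 windows, Ctnnb1 having 2). The search and the base counts used all 250 bases of each window. For Wnt4 only 104 of them lie before the GENCODE start of the gene. Both Ctnnb1 windows (chr9:120933150-120933399 and chr9:120933328-120933577) lie wholly past the GENCODE start of that gene (120929216), and they overlap each other. The TCF/LEF core was read as CTTTGA or CTTTGT and the κB motif as GGG, any 3 bases and TTCC, each on both strands. Of the 7 windows, that of Fzd1 held the core, with 1 match of each form, and 0 held the κB letters. Of all 32851 promoter windows read in this way, 27.6% held either core form and 4.65% the κB letters. The median over the 7 windows was 69.2% G and C and 24 CpG steps, against 52.4% and 6 over all windows. Ctnnb1 enters that median with both of its windows. The Fzd1 window, which held the core, had 51.2% G and C, below the median of all windows, and 12 CpG steps. The stretches of 4 of the genes that fell are shown 5′ to 3′ on the strand of the gene, at chr11:108920099-108920348 for Axin2, chr15:98778151-98778400 for Wnt10b, chr3:83766071-83766320 for Sfrp2 and chr5:4758217-4758466 for Fzd1. Capitals mark the TCF/LEF core, of which the first match in Fzd1 reads on the other strand. A match or its absence here describes these letters only.
Axin2: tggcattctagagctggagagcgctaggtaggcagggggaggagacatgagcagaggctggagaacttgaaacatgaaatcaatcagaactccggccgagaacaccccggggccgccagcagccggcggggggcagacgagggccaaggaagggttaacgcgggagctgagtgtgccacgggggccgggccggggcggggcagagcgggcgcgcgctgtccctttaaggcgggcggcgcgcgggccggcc
Wnt10b: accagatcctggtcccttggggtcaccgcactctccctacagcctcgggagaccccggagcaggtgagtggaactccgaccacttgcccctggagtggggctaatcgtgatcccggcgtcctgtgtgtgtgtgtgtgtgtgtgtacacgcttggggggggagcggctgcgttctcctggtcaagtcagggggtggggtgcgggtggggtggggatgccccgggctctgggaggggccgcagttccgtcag
Sfrp2: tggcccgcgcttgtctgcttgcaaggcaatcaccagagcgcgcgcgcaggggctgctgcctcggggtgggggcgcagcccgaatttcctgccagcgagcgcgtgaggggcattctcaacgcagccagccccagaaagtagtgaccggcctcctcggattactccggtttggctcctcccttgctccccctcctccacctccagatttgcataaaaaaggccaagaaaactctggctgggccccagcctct
Fzd1: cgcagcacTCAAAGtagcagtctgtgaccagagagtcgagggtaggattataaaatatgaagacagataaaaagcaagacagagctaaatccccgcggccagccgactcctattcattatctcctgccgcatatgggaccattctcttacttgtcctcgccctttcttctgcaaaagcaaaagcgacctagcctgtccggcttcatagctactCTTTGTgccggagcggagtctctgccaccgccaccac

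The ligand gene Wnt10b, whose product favours osteoblast over adipocyte formation in mice, was at 41.2 and 40.2 CPM in control cells (24 h and 48 h) and at 26.4 and 18.9 CPM after treatment. Both treated values lay below both control values, and the treated 48 h value was the lowest. The treated level was 0.641 of control at 24 h, with a 95% counting interval of 0.565 to 0.728, and 0.471 at 48 h (0.400 to 0.554), so the intervals of the 2 times do not overlap. Counting intervals cover the sampling of reads and not differences between cultures. In the additive fit Wnt10b fell by 0.83 on the log2 scale (SE 0.18, adjusted p = 0.00023, limma).

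Wnt4, a ligand gene associated with β-catenin-independent as well as canonical signalling, was scarcer, with 1.92 and 1.89 CPM per kb in control against 15.2 and 14.8 for Wnt10b. It was at 8.06 and 7.94 CPM in control cells and 3.54 and 3.87 CPM after treatment. These values come from 129 and 104 reads in control and 53 and 44 reads in treated cells, and the control and treated values lay far apart at both times. The ratio was 0.439 (0.312 to 0.608) at 24 h and 0.488 (0.335 to 0.701) at 48 h, and the intervals overlap. Wnt4 fell by 0.94 on the log2 scale (SE 0.21, adjusted p = 0.00066, limma).

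Per kilobase of the longest annotated transcript, Wnt10b was the most abundant of the 6 Wnt ligand genes measured, in every library (9.75 and 6.99 CPM per kb in treated cells). It made up 59.9% and 56.4% of the summed ligand level per kb in control and 50.1% and 44.7% in treated cells. Wnt4 made up 7.57% and 7.20% in control and 4.33% and 5.90% in treated cells. Wnt5a, a ligand gene of β-catenin-independent signalling, was the only measured ligand gene above control at both times, at 14.1 and 14.4 CPM in control cells and 18.8 and 18.7 CPM after treatment (1.33-fold and 1.30-fold; log2 difference 0.37, adjusted p = 0.293, limma). Its share of the ligand level per kb was 7.93% and 7.79% in control and 13.7% and 17.0% in treated cells. The summed ligand level itself was 25.4 and 26.3 CPM per kb in control and 19.5 and 15.7 in treated cells.

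Sfrp2, the secreted antagonist gene, was the most abundant of the 9 per kb in both controls, with 219 and 226 CPM per kb against 133 and 143 for Ctnnb1, the next, while in treated cells the pair were close (131 and 124 against 129 and 127). In CPM Sfrp2 was at 438 and 453 CPM in control cells and 261 and 249 CPM after treatment. The 2 controls differed little and the 2 treated libraries differed little, with a wide gap between them. The ratio was 0.597 (0.574 to 0.621) at 24 h and 0.549 (0.525 to 0.574) at 48 h, and Sfrp2 fell by 0.80 on the log2 scale (SE 0.17, adjusted p = 0.000402, limma). An antisense gene, Gm26771, overlaps the end of Sfrp2. The sources used here do not say whether counting used the strand, so their reads may not be told apart, but Gm26771 was at 2.55 to 3.60 CPM, far below Sfrp2. Of the other secreted antagonists on the wider list, Wif1, which encodes Wnt inhibitory factor, fell, from 13.0 and 15.3 CPM in control to 7.47 and 4.05 CPM in treated cells (0.575 and 0.264 of control; adjusted p = 2.34e-07, limma). Dkk3, a divergent Dickkopf gene, was at 0.795 and 0.719 of control and did not pass (adjusted p = 0.221, limma). Sfrp2 held 49.2% and 49.3% of the antagonist level per kb in control and 42.3% and 43.1% in treated cells, with Dkk3 making up nearly all of the rest.

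**Figure D2:**
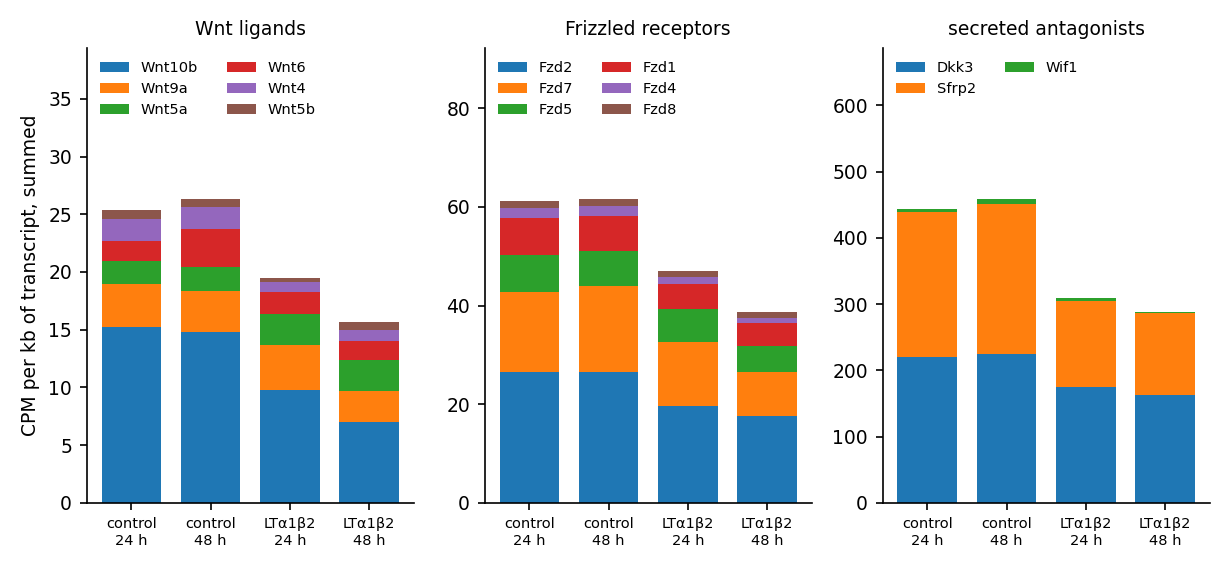
Level of the measured Wnt ligand, Frizzled and secreted antagonist genes in each library, as CPM per kb of the longest annotated transcript, stacked by gene, with 1 library per bar. The sums are lower in both treated libraries in each panel, from 61.1 and 61.5 to 47.0 and 38.8 for the Frizzled genes and from 444 and 458 to 309 and 288 for the antagonists.

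The Frizzled genes encode the receptors that bind Wnt ligands at the cell surface. Fzd2 was at 97.3 and 97.5 CPM in control cells and 72.1 and 64.3 CPM after treatment. The controls were nearly equal and both treated values lay below them, at 0.742 (0.686 to 0.802) and 0.659 (0.601 to 0.723) of control. Fzd2 fell by 0.51 on the log2 scale (SE 0.17, adjusted p = 0.049996, limma), just inside the threshold. Fzd1, whose promoter window held the TCF/LEF core (Fzd2 has no window here), was at 31.2 and 29.4 CPM in control cells and 21.2 and 19.5 CPM after treatment. Its ratios, 0.680 (0.589 to 0.784) and 0.662 (0.559 to 0.783), had overlapping intervals, and it fell by 0.55 on the log2 scale (SE 0.18, adjusted p = 0.0421, limma), with an adjusted p of 0.0566 when the length trend is removed and the prior degrees of freedom are estimated anew (10.3), and of 0.0042 when they are kept infinite (limma; log2 difference -0.48 in both). Per kb, Fzd2 made up 43.4% and 43.3% of the 6 measured Frizzled genes in control and 41.9% and 45.3% in treated cells, and Fzd1 12.2%, 11.4%, 10.7% and 12% in the same order. Fzd7, the second most abundant Frizzled gene per kb in every library, also fell (0.798 and 0.515 of control; adjusted p = 0.00798, limma).

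The co-receptor genes Lrp5 and Lrp6 encode related single-pass receptors that bind Wnt proteins together with a Frizzled. Lrp5 was at 168 and 161 CPM in control cells and 128 and 98.1 CPM after treatment. The ratio was 0.764 (0.720 to 0.810) at 24 h and 0.610 (0.567 to 0.656) at 48 h, with intervals that do not overlap, and Lrp5 fell by 0.55 on the log2 scale (SE 0.17, adjusted p = 0.0301, limma). Lrp6 was at 386 and 354 CPM in control cells and 309 and 220 CPM after treatment. Its ratio was 0.799 (0.769 to 0.830) at 24 h and 0.622 (0.592 to 0.653) at 48 h, and the log2 difference of -0.50 (SE 0.17) did not pass (adjusted p = 0.0657, limma). Lrp6 is the gene of the 9 with the longest transcript, 9368 bases, and Lrp5 follows with 5161. With each library's trend of level on transcript length removed, the 48 h difference of Lrp6 was -0.34 instead of -0.68 and that of Lrp5 -0.50 instead of -0.71, close to their 24 h differences of -0.32 and -0.40 under that setting. Over both times the log2 difference of Lrp6 under that setting was -0.33. It did not pass with the prior degrees of freedom estimated anew (adjusted p = 0.0509, limma). With an infinite prior, a form chosen after seeing the data, it passed (adjusted p = 0.00346, limma). Per kb, Lrp6 was above Lrp5 in every library, with 54.8% to 57.1% of their sum.

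**Figure D3:**
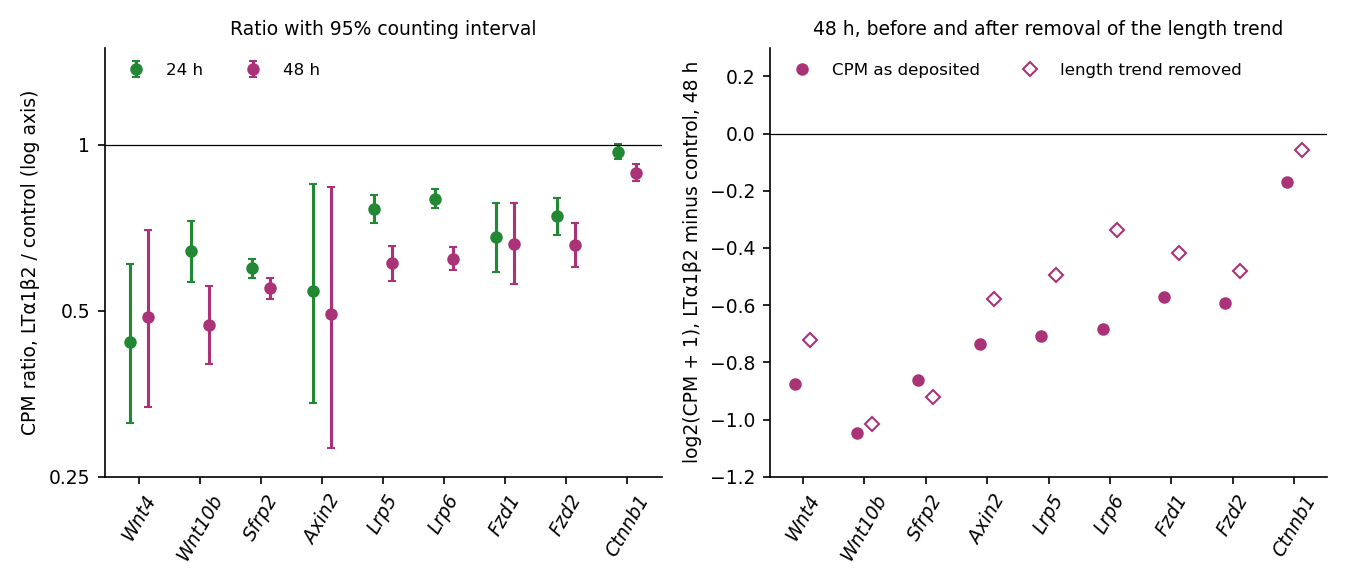
Left, ratio of CPM between treated and control libraries on a log axis at 24 h (green) and 48 h (purple) with exact 95% counting intervals. Right, the 48 h difference of log2(CPM + 1) as deposited (filled) and with the transcript-length trend removed (open). The widest intervals are those of Axin2 and Wnt4, and the length trend takes most from Lrp6, the longest transcript (from -0.68 to -0.34).

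Axin2, the feedback inhibitor and common target gene, was the scarcest of the 9 per kb in every library (0.895 and 0.878 CPM per kb in control). It had 3.81 and 3.74 CPM in control cells and 2.07 and 1.85 CPM after treatment, from 61, 49, 31 and 21 reads. Both treated values lay below both control values, but on so few reads the intervals are wide. The ratio was 0.542 (0.340 to 0.849) at 24 h and 0.494 (0.282 to 0.840) at 48 h. An antisense gene, Gm11670, overlaps Axin2 and has no value among the 12208 genes, so its level is not known here. Axin2 fell by 0.69 on the log2 scale (SE 0.23, adjusted p = 0.0480, limma) and by 0.62 with the length trend removed (adjusted p = 0.0319 with an infinite prior, but 0.113 with prior degrees of freedom estimated anew, limma). In the fit without the treated 48 h library, which has no time term, its log2 difference was -0.64. Without the treated 24 h library it was -0.75.

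Ctnnb1, the β-catenin gene, lay nearest to control of the 9 at both times. It was at 482 and 518 CPM in control cells and 469 and 461 CPM after treatment. The ratio was 0.972 (0.941 to 1.00) at 24 h and 0.890 (0.858 to 0.923) at 48 h, and with the length trend removed the differences were -0.05 and -0.06 on the log2 scale. In the additive fit its log2 difference was -0.10 (SE 0.18, adjusted p = 0.852, limma). At 36.9% and 40.6% of all tested genes with a lower difference at 24 h and 48 h, it stood in the middle of the transcriptome, whereas for Wnt4 that share was 0.181% and 1.38% and for Wnt10b 1.08% and 0.551%. Part of Ctnnb1 overlaps Ulk4 on the other strand, which was at 3.14 to 4.81 CPM.

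By a rule of size with no p-value, at least 1.5-fold on the log2(CPM + 1) scale, 4 of the 9 genes were lower at 24 h (Wnt4, Wnt10b, Sfrp2 and Axin2), where 1.35% of all tested genes were. At 48 h 7 of the 9 were lower, the same 4 with Lrp5, Lrp6 and Fzd2, where 6.28% of all tested genes were. Removal of the length trend left 3 of the 9, and the share over all genes was not counted there. The order by treated share of control, lowest first, was Wnt4, Axin2, Sfrp2, Wnt10b, Fzd1, Fzd2, Lrp5, Lrp6 and Ctnnb1 at 24 h. The counting intervals of neighbours in that order overlap except those of Lrp6 and Ctnnb1. At 48 h the order was Wnt10b, Wnt4, Axin2, Sfrp2, Lrp5, Lrp6, Fzd2, Fzd1 and Ctnnb1. There the intervals of neighbours overlap except those of Fzd1 and Ctnnb1.

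The difference with time in control cells was small. The 48 h level was between 0.916 (Lrp6) and 1.07 (Ctnnb1) of the 24 h level, and 0 of the 9 differed 1.5-fold, where 1.4% of all tested genes did. In treated cells 0 of the 9 differed 1.5-fold either, against 12.5% of all tested genes. The 48 h level there was 0.716 (0.604 to 0.848) of the 24 h level for Wnt10b, 0.713 (0.679 to 0.749) for Lrp6 and 0.766 (0.711 to 0.826) for Lrp5. Those of Wnt4, Axin2, Fzd1 and Ctnnb1 had intervals that include 1, and those of Sfrp2 (0.951, 0.905 to 0.998) and Fzd2 (0.891, 0.810 to 0.980) lay just below it. The comparisons with time and with treatment share libraries.

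**Figure D4:**
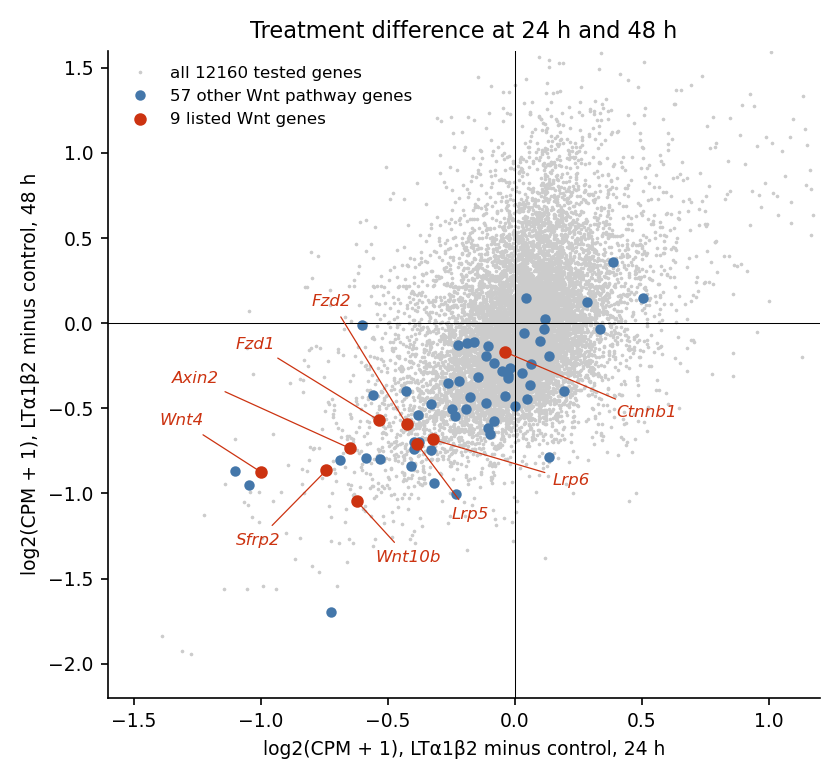
Difference of log2(CPM + 1) between treated and control libraries at 24 h (x axis) and 48 h (y axis) for all 12160 tested genes (grey; 41 lie outside the axes), 57 other Wnt pathway genes (blue) and the 9 listed genes (red, named). The red points lie at the lower left, from Ctnnb1 near the centre (-0.04 and -0.17) to Wnt4 (-0.999 and -0.88).

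The rest of the pathway was read from a wider list of 106 Wnt genes by role, of which 66 were tested, 57 besides the 9. Of these 57, 11 fell and 0 rose (limma), where 2.27% and 2.92% of all tested genes did, the background for each role as well. This list too was chosen with earlier results of these data known. Their median difference was -0.11 (24 h) and -0.40 (48 h), against 0.02 and -0.09 over all tested genes. With the length trend removed the 48 h median of the 57 was -0.21, and 11 again fell. With 10 prior degrees of freedom 1 of the 57 fell, Tle2, and 25 of all 12160.

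All 12 tested receptor and co-receptor genes were lower at both times, where 4040 of all 12160 tested genes were. With the length trend removed 11 were, and the share over all genes was not counted there. Of the 12, 5 fell. Besides the listed genes they were Fzd7 and Ror1, which encodes a receptor kinase for Wnt5a (22.6 and 22.8 CPM in control, 13.6 and 12.6 in treated cells; adjusted p = 0.00274, limma). Fzd4, which also serves the ligand norrin, was at 0.740 and 0.570 of control (adjusted p = 0.0591, limma). Among genes of R-spondins and receptor turnover, 2 of 6 fell, Rnf43 and Kremen1. Rnf43, whose ubiquitin ligase removes Frizzleds from the surface, is itself a Wnt target (0.368 and 0.440 of control, adjusted p = 0.000919, limma). Kremen1 is a Dickkopf receptor gene (0.768 and 0.615 of control, adjusted p = 0.0341, limma). Of the 6, 5 were lower at both times and 1 was higher, the R-spondin gene Rspo2 (1.03 and 1.11 of control, adjusted p = 0.856, limma). Lgr4, an R-spondin receptor gene, was at 0.761 and 0.682 of control (adjusted p = 0.111, limma).

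Of 16 intracellular relay genes 2 fell, Axin2 and Dvl3, a Dishevelled gene (0.793 and 0.591 of control; adjusted p = 0.0344, limma), and the median of the 16 was -0.02 at 24 h and -0.27 at 48 h, or -0.09 at 48 h with the length trend removed. Gsk3b, the kinase gene of the destruction complex, was at 0.944 and 0.669 of control (adjusted p = 0.316, limma); its transcript is 8303 bases long. Of 11 nuclear factors 3 fell. They were Tle2, which encodes a Groucho-type corepressor (62.9 and 42.1 CPM in control, 29.9 and 21.3 in treated cells; adjusted p = 1.86e-06, limma), Tcf7l1, which encodes a TCF factor that mostly represses (0.662 and 0.572 of control; adjusted p = 0.00305, limma), and Bcl9l, a β-catenin coactivator gene (0.759 and 0.615 of control; adjusted p = 0.0315, limma).

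Of 9 tested target genes 3 fell, Axin2, Rnf43 and Ccn4, a matricellular protein gene (121 and 116 CPM in control, 90.6 and 64.3 in treated cells; adjusted p = 0.00792, limma). Myc, a target gene picked after its values were seen, was at 1.43 and 1.11 of control and did not pass (adjusted p = 0.325, limma). Of 5 genes of the planar polarity branch Daam2, a formin gene, fell (0.691 and 0.574 of control; adjusted p = 0.00461, limma), and Prickle1 and Vangl1 did not pass (adjusted p = 0.550 and 0.563, limma). Of the ligand secretion genes Porcn, whose product attaches lipid to Wnt proteins, was at 0.828 and 0.424 of control (adjusted p = 0.0645, limma). Wls, which encodes their carrier to the surface, was at 0.925 and 0.874 (adjusted p = 0.757, limma).

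The genes nearest in pattern over the 4 libraries, by root mean square difference of centred log2(CPM + 1) among 9378 genes with a mean of at least 10 CPM, were Irx5 (0.062) and Cped1 (0.069) for Wnt4, and Ptch1 (0.037) and Cspg4 (0.042) for Wnt10b. For Sfrp2 they were Lfng (0.028) and the receptor gene Ror1 (0.032), and for Axin2 Adamts9 (0.021) and Myo1e (0.027). With 4 points per gene these are descriptions. The added 1 also shrinks the differences of Axin2 and Wnt4, which have low CPM, more than those of their neighbours.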

How the data were processed

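The authors deposited CPM values of 12208 genes (Ensembl identifiers with version) in 1 table, a column per library. Per the labels' protocols, libraries were made from total RNA with a kit that keeps strand and sequenced as read pairs. The tool named, per the submitters' processing notes, is edgeR 3.30.0. Not given in the sources used here were the aligner, counter, build and low-count filter. Each column sums to 1000000, so totals cover the listed genes, and the lowest value is worth 9 to 12 reads, so silent genes are not analysed here.

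Symbols, positions and the longest basic transcript came from GENCODE M21, in which 12205 identifiers were found without their version and 11716 with it. The worth of 1 read was fitted from the steps of the low values, and 100% of values were whole multiples within 0.01 of a read. These reads give exact 95% conditional binomial intervals, which cover counting error only. Genes with a mean of at least 1 CPM (12160) were fitted as log2(CPM + 1), a scale that shrinks changes of low values, in limma 3.58.1 (R 4.3.3; trended, two-sided, Benjamini-Hochberg 0.05) with terms for time and treatment, after the code was tested on simulated data. "Rose" and "fell" mean past this fit. It treats 24 h and 48 h as repeats, although nothing says they came from separate cultures. Promoter sequences are from RefSeq. Named were the listed genes, wider-list genes that passed and up to 3 per role with the largest mean difference. The members and lists were chosen with earlier results of these data known. The settings tried were other pseudocounts and filters, rescaling by median of ratios, removal of the length trend (loess), other forms of the fit and leaving out each library.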

Additional observations from a re-analysis of the deposited data

How the results depend on the processing

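All 9 genes were lower than control at both times under every setting that gives both differences, but the calls depended on the form of the fit. Of the 9, 7 fell, with 18 of the 66 tested genes of the wider list and 276 genes in all, while 355 in all rose. By median-of-ratios rescaling, with the prior degrees of freedom estimated at 9.83 instead of infinite, these counts of fallen genes were 2, 6 and 84, and 95 rose. With rescaling and an infinite prior, a setting chosen after seeing the data, they were 8, 22 and 459, and 809 rose. Removal of the length trend as planned, with the prior degrees of freedom estimated at 10.3, gave 5, 16 and 296, and 313 rose. Its form with an infinite prior, also chosen after seeing the data, gave 8, 25 and 767, and 991 rose. In that form 3 of the wider list rose (Wnt5a, Myc and Csnk1a1, the last picked after its values were seen). Without the time term the counts were 0, 0 and 11, and 20 rose. With 10 prior degrees of freedom they were 0, 1 and 25, and 39 rose. Without the trend of spread on level they were 4, 14 and 290, and 351 rose. A pseudocount of 0.25 gave 5, 16 and 271, and 349 rose. Leaving out 1 library, which also drops the time term and assumes that the lone library of an arm varies like the pair of the other, gave 0 to 8 of the 9, 0 to 42 of the wider list (0 to 2 risen), and 6 to 3063 fallen and 16 to 1886 risen genes in all. Of these, the counts of fallen genes without either control library were the lowest, and those without the treated 24 h library the highest. At least 1.5-fold lower were 4 genes at 24 h and 7 at 48 h. With a pseudocount of 5 these were 2 and 4, and with a pseudocount of 0.25 they were 4 and 8. A threshold of 2-fold gave 0 and 1, and removal of the length trend gave 3 at 48 h. Shares over all genes were not counted for these 4 settings. The cause of these shifts was not tested. At a minimum of 5 CPM Axin2 is not tested, and neither is Rnf43 of the wider list. Count-based tests of recovered reads were planned and were not run: the lowest value is worth 9 to 12 reads, so the value of 1 read is inferred from steps between values, and the printed reads and counting intervals rest on that inference. Libraries were paired by time alone, through the time term; there are no replicates to pair within a group. With 1 library per group, differences between cultures cannot be told apart from treatment, and Axin2 and Wnt4 rest on 21 to 129 reads per library. Rnf43 of the wider list rests on 21 to 87 reads per library.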
